A study of Homo sapiens with 24 samples.

Results

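CD24, CD44, EPCAM, MET and DCLK1 are 5 genes used to mark cancer stem cells (CSCs) of the pancreas. Their rows were taken by gene name from the RNA-Seq tables of 3 Panc-1 lines, and all 5 were among the 13521 genes listed in every table and the 14409 listed in any. They are followed here across the 6 groups of line and treatment, with attention to how far the lines lay apart before treatment and whether treatment brought them to one level. Panc-1 is an established cell line from a human ductal carcinoma of the pancreas. Its derivatives carried the empty Tet-One plasmid or a plasmid with a myc-tagged open reading frame of rat MIST1 (Tet-MIST1) or mouse PTF1a (Tet-PTF1a), both basic helix-loop-helix factors of acinar cells. Each line gave 4 untreated libraries (Control) and 4 libraries made after 72 h in 1 µg/ml doxycycline (Dox), which switches the promoter of the plasmid on. All 3 lines were kept in medium with tetracycline-depleted serum and had been selected with puromycin. The passage number was 32 for Tet-One and Tet-PTF1a and 33 for Tet-MIST1. Each line was an individual clone and was deposited as its own table, so that the inserted factor, the clone and the table cannot be told apart in any comparison between lines.

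CD24 is a small, heavily glycosylated protein held in the membrane by a lipid anchor, and CD44 is the main receptor for hyaluronan, a polysaccharide of the extracellular matrix. EPCAM is an epithelial adhesion molecule that is cut by proteases to release a signalling fragment, and MET is the receptor tyrosine kinase for hepatocyte growth factor (HGF). DCLK1 is a microtubule-associated kinase of the doublecortin family that marks tuft cells and some tumour-initiating cells in the gut and pancreas. The libraries measured RNA of whole cultures, in which fewer cells that express a gene and less RNA per cell cannot be told apart.

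The libraries held 17211000 to 43018500 counted reads in Tet-PTF1a, 35863800 to 41648000 in Tet-One and 33402600 to 42510900 in Tet-MIST1. One library stood far apart. Over 9994 genes, the SD of its log2 CPM around the mean of the rest of its group was 0.57 for Tet-One Dox replicate 1, against 0.19 to 0.22 for the other Tet-One Dox libraries and 0.06 to 0.22 for all libraries of the other groups. The highest of these was Tet-MIST1 Dox replicate 1, at 0.22 beside 0.09 to 0.15 in the rest of its group, and leaving it out changed no call of the 5 genes. PTF1A had 0 to 2 reads in the Tet-PTF1a Control libraries and 53 to 168 with Dox, counted on the human locus although the inserted frame is of the mouse, and MIST1 (BHLHA15) was listed only in Tet-PTF1a, where it checks no label. KRT8, KRT18, KRT19, SOX9 and MUC1, epithelial markers of the duct, were listed in every line. Of the defining markers of leukocytes, endothelium and fibroblasts, PTPRC, CD3E, PECAM1, VWF, CDH5, COL1A2, DCN and LUM were not listed in any table, while CD68 and COL1A1 were. The study's methods name 4 biological replicates, while the labels do not say whether the 4 libraries of a group came from separate cultures. The p-values measure the spread between these libraries, part of which may be technical. Levels are CPM, the reads of a gene relative to the library total, scaled by the trimmed mean of M values (TMM) over all 24 libraries.

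In the deposited tables, which use hg19, CD44 lies on chromosome 11 (35160417 to 35253949, plus strand, 19 listed exons), EPCAM on chromosome 2 (47596287 to 47614167, plus strand, 9 exons), MET on chromosome 7 (116312459 to 116438440, plus strand, 21 exons) and DCLK1 on chromosome 13 (36342789 to 36705514, minus strand, 20 exons). CD24 is placed on chromosome Y (21152526 to 21438350, minus strand, 2 listed exons) and is the only row of that chromosome in each table. The GENCODE annotation lifted to GRCh37 has the processed pseudogene CD24P4 within those exons (21154353 to 21154595) and no gene named CD24, whereas RefSeq places CD24 on chromosome 6 of GRCh38.p14. Of the 10 pieces of 30 bases in the second of the 3 RefSeq start windows of CD24, 5 were found on chromosome Y of GRCh37 and 0 on chromosome 6. For the first window, printed here, 1 of 10 was found on chromosome Y, and for the third 0 of 10, with 0 on chromosome 6 for both. The CD24 counts can therefore hold reads of near-identical copies, and which copy they came from was not tested. The counts per gene do not separate the splice forms of CD44, and 2 antisense transcripts, CD44-AS1 and CD44-DT, overlap its exons on the minus strand, whose reads would be included if strand was not used in counting.

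The sequence before the transcription start is shown for CD24 and MET, both lower in Tet-PTF1a with Dox, and for DCLK1, the gene that rose in Tet-MIST1. Each line gives 250 bases of RefSeq sequence on GRCh38.p14, 5′ to 3′ on the strand of the gene, with E boxes (CANNTG, the motif of basic helix-loop-helix factors) in capitals.
CD24, chr6:106975628-106975877, minus strand: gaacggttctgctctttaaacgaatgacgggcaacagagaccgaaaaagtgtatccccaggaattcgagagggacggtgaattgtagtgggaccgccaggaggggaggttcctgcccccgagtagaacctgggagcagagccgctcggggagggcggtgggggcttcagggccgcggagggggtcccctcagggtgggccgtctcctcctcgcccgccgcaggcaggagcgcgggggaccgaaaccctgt
MET, chr7:116671946-116672195, plus strand: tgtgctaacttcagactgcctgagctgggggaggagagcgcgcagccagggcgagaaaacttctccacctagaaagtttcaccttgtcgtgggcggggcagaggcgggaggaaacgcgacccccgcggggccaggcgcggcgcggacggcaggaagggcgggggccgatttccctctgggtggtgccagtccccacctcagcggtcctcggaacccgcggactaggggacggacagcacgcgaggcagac
DCLK1, chr13:36131383-36131632, minus strand: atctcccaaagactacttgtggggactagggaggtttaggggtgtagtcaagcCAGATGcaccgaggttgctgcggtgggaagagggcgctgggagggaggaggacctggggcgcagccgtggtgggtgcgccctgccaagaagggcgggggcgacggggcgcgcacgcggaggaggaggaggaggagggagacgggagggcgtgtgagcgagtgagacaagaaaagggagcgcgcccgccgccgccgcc
The DCLK1 window holds 1 E box, CAGATG, from 197 to 192 bases before the start, which on the other strand reads CATCTG. The printed CD24 and MET windows hold none, nor does that of CD44, which is not printed because it lies within an exon of another CD44 transcript. An E box was found on either strand in 61.8% of the 35116 windows of this length, CATCTG in 12.2%, CAGCTG in 13.99% and the TC box of the PTF1 complex (TGGGAAA) in 6.88%. Neither CAGCTG nor TGGGAAA occurs in the windows of CD24, CD44, MET or DCLK1, among which CD24 and DCLK1 have 3 each. Of the windows not printed, the third of CD24 holds 1 E box (CAGGTG) and the second holds none, while the third of DCLK1 holds 2 and the first holds none. A match is a sequence of letters and was not tested as a site. EPCAM has no entry in the table of windows.

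The first question was whether Dox moved the 5 genes within each line. In Tet-PTF1a, 4 of the 5 genes fell with Dox (CD24, CD44, MET and EPCAM), and DCLK1 stayed within 1.51 to 2.28 CPM. There 48.2% of 14053 genes passed the test and 24.4% passed it as lower, with edgeR's quasi-likelihood test at a false discovery rate (FDR) under 0.05. In Tet-MIST1, 1 of the 5 genes rose (DCLK1) and 0 fell, beside 20.6% of 13623 genes called, 11.9% as higher and 8.77% as lower. In Tet-One, 0 of the 4 genes tested were called, as was 0% of 13428 genes, with 401 genes at an unadjusted p under 0.05 and 0 genes called by DESeq2. DCLK1 was not tested in Tet-One because it had 1 to 5 reads per library, under the minimum of 0.5 CPM in at least 4 libraries. In Tet-PTF1a the summed levels of other cell type markers also moved with Dox (CPM as scaled by the authors, no test). The 6 listed of 8 ductal markers went from 3409 to 3579 CPM in Control to 1699 to 1751 CPM with Dox. CD68, the 1 listed of 4 leukocyte markers, went from 62.9 to 68.9 CPM to 30.7 to 35.4 CPM, and the 2 listed of 5 fibroblast markers from 149 to 157 CPM to 63.9 to 66.3 CPM. PRSS1, the 1 listed of 6 acinar markers, was at 0.0262 to 0.0943 CPM in Control and 2.81 to 3.47 CPM with Dox. In Tet-One and Tet-MIST1 the ductal sums of Control and Dox overlapped, while CD68 in Tet-MIST1 was at 249 to 254 CPM in Control and 197 to 235 CPM with Dox. The part of these markers in the results was not tested. Since the 5 genes were chosen with earlier results of these libraries known, the counts are no independent evidence of a direction.

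**Figure D1:**
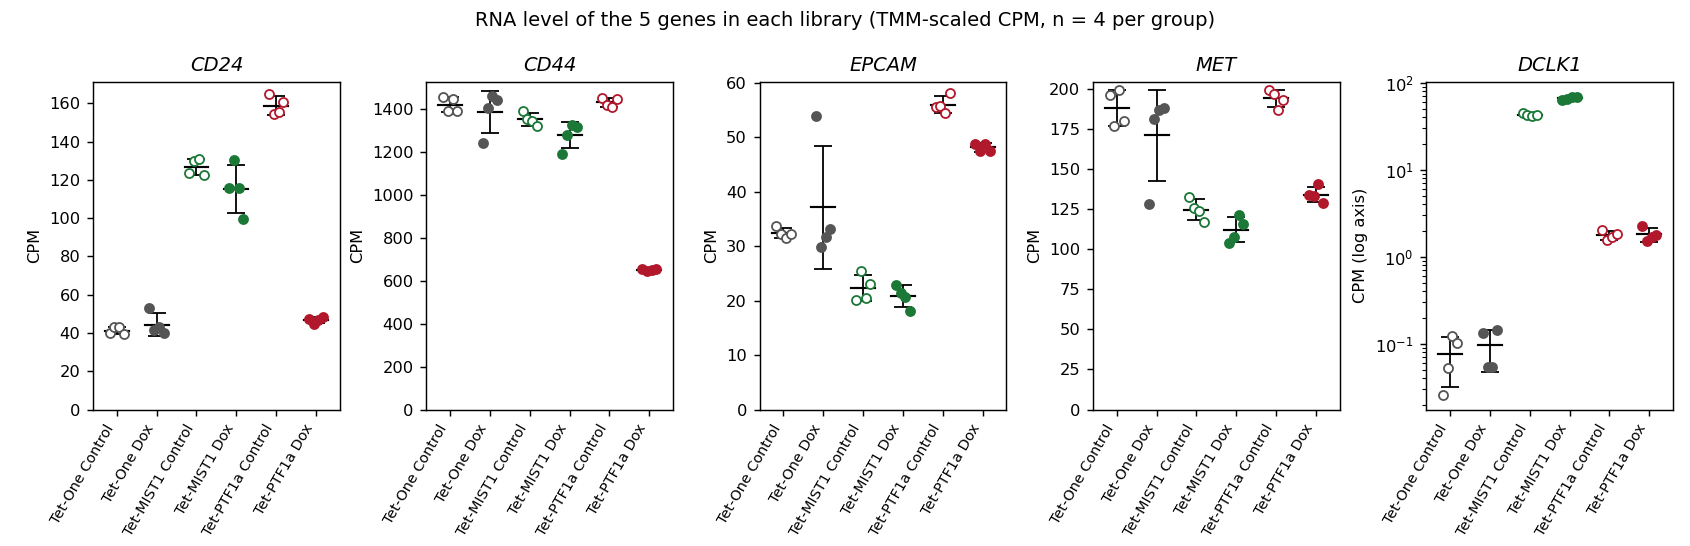
CPM (y axis, scaled by TMM over the 24 libraries) of each gene in the 6 groups of line and treatment (x axis), with 1 point per library, open for Control and filled for Dox, and the mean ± SD in black (n = 4). CD24 and CD44 drop in Tet-PTF1a with Dox, to near the Tet-One level for CD24 and to under that level for CD44. DCLK1, on a log axis, differs between lines far more than with Dox.

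CD24 was 3.81-fold higher in uninduced Tet-PTF1a than in Tet-One, and with PTF1a induced it came close to the Tet-One level. The Tet-One Control libraries held 39.9, 42.9, 43.02 and 39.2 CPM of CD24 and the Tet-One Dox libraries 52.9, 41.6, 43.04 and 39.8 CPM. In Tet-MIST1 the Control libraries held 123, 130, 131 and 122 CPM and the Dox libraries 116, 130, 116 and 99.6 CPM. In Tet-PTF1a the Control libraries held 165, 154, 155 and 161 CPM and the Dox libraries 47.1, 44.7, 46.9 and 48.4 CPM. All Tet-PTF1a Dox libraries lay below all Tet-PTF1a Control libraries, while Control and Dox overlapped in both other lines. The fall in Tet-PTF1a was 3.39-fold (log2 fold change -1.76, SE 0.031, FDR = 3.64e-42), a change that 0.954% of all genes tested there exceeded in size. In Tet-MIST1 the log2 fold change was -0.14 (SE 0.069, FDR = 0.169), and in Tet-One it was 0.11 (SE 0.097, FDR = 0.897).

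The difference between Tet-PTF1a and Tet-One in Control was 1.93 on the log2 scale (95% interval 1.85 to 2.01, FDR = 4.79e-16). With Dox the difference was 0.06 (95% interval -0.15 to 0.27, FDR = 0.57). The Dox responses of the 2 lines differed by -1.87 (SE 0.102, FDR = 5.20e-09). Without Tet-One Dox replicate 1, which was the highest of its group, the difference left with Dox was 0.15 (SE 0.045, FDR = 0.00166), so that the levels then still differed beyond the spread. With all libraries kept but scaled by total counts alone, the difference with Dox was 0.22 (FDR = 0.0293). Tet-MIST1 stayed higher than Tet-One, by 1.62 in Control and 1.36 with Dox, and the responses of these lines differed by -0.25 (FDR = 0.475). Tet-PTF1a was the highest line in Control (0.31 above Tet-MIST1, FDR = 1.20e-10) and lay 1.30 below Tet-MIST1 with Dox (FDR = 9.70e-10). In Control the order of the levels was Tet-PTF1a, Tet-MIST1 and Tet-One, each beyond the spread of the next.

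CD44 was the opposite case, with nearly one level in the uninduced lines and a separate level in PTF1a-induced cells. Its Control libraries held 1456, 1392, 1447 and 1394 CPM in Tet-One, 1392, 1353, 1345 and 1320 CPM in Tet-MIST1, and 1454, 1421, 1410 and 1448 CPM in Tet-PTF1a. With Dox they held 1244, 1404, 1460 and 1441 CPM in Tet-One, 1193, 1280, 1328 and 1315 CPM in Tet-MIST1, and 654, 645, 652 and 653 CPM in Tet-PTF1a. The Tet-PTF1a Dox libraries lay below all other libraries, with an SD of 3.87 CPM among them. CD44 fell 2.197-fold in Tet-PTF1a (log2 fold change -1.14, SE 0.019, FDR = 5.41e-43). The log2 fold changes in Tet-MIST1 (-0.09, SE 0.047, FDR = 0.212) and in Tet-One (-0.03, SE 0.083, FDR = 0.912) did not pass the test.

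The CD44 difference between Tet-PTF1a and Tet-One was -0.0046 in Control (95% interval -0.057 to 0.048, FDR = 0.871), and 99.4% of genes differed more between these lines. With Dox the difference was -1.11 (95% interval -1.28 to -0.93, FDR = 5.26e-06), and the responses differed by -1.10 (SE 0.078, FDR = 9.30e-08). When libraries were scaled by total counts alone, CD44 was higher in Tet-PTF1a than in Tet-One in Control, by 0.083 (FDR = 0.00604). Tet-MIST1 was lower than Tet-One in Control by a small amount (log2 difference -0.072, FDR = 0.0411, fold 1.05) with overlapping libraries. That call was lost under 6 other settings (all libraries in one fit, at least 10 counts in every library, the limit on fold change, and scaling by library size, upper quartile or the size factors of DESeq2 within edgeR), and also without any of Tet-MIST1 Control replicates 2, 3 and 4 and Tet-One Control replicates 1 and 3, with an FDR of up to 0.140. With Dox the same difference was -0.14 (FDR = 0.223), or -0.18 without Tet-One Dox replicate 1 (FDR = 0.0133). In Control, Tet-One and Tet-PTF1a did not differ beyond their spread, and which came first depended on the scale (1422 against 1433 CPM on average, but a fitted difference of -0.0046). Tet-MIST1 was the lowest line, and Tet-PTF1a was 0.067 above Tet-MIST1 (FDR = 0.0111, lost at 0.118 with all 24 libraries fitted together). The call was also lost with upper quartile scaling (0.031, FDR = 0.230) and under the limit on fold change.

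MET fell in Tet-PTF1a with Dox, from the Tet-One level towards the lower Tet-MIST1 level. Its Control libraries held 197, 177, 199 and 180 CPM in Tet-One, 133, 126, 124 and 117 CPM in Tet-MIST1, and 200, 197, 187 and 193 CPM in Tet-PTF1a. With Dox they held 128, 181, 187 and 188 CPM in Tet-One, 104, 108, 122 and 116 CPM in Tet-MIST1, and 134, 133, 141 and 129 CPM in Tet-PTF1a. Control and Dox did not overlap in Tet-PTF1a and overlapped in the other lines, and Tet-One Dox replicate 1 was far below the rest of its group. The fall in Tet-PTF1a was 1.45-fold (log2 fold change -0.53, SE 0.026, FDR = 3.97e-23), beside -0.16 in Tet-MIST1 (SE 0.059, FDR = 0.075) and -0.13 in Tet-One (SE 0.126, FDR = 0.897).

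In Control, MET in Tet-PTF1a lay 0.03 above Tet-One (95% interval -0.05 to 0.11, FDR = 0.47), and Tet-MIST1 was lower than both, by 0.59 and 0.62. With Dox, MET in Tet-PTF1a was 0.26 above Tet-MIST1 (FDR = 6.49e-04), and the responses of these 2 lines differed by -0.36 (SE 0.066, FDR = 1.92e-04). Against Tet-One the difference with Dox was -0.37 (SE 0.123, FDR = 0.0287), and the responses differed by -0.40 (SE 0.134, FDR = 0.0665). Without Tet-One Dox replicate 1 these values were -0.49 (FDR = 1.90e-20) and -0.51 (SE 0.051, FDR = 4.11e-09), so that the difference between the responses passed the test. The call of -0.37 was lost, at an FDR of up to 0.0737, without any one of Tet-One Dox replicates 2 to 4 or Tet-PTF1a Dox replicates 1 to 4. Scaling by library size also lost it (-0.22, FDR = 0.203). The order in Control was Tet-PTF1a, Tet-One and Tet-MIST1, of which the first 2 did not differ beyond their spread under TMM. With library size scaling, MET in Control was higher in Tet-PTF1a than in Tet-One, by 0.12 (FDR = 0.0121).

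EPCAM fell by the smallest amount of the 4 surface markers in Tet-PTF1a, and the order of its line means was the same in both states. Its Control libraries held 33.7, 32.3, 31.5 and 32.2 CPM in Tet-One, 20.2, 25.5, 20.6 and 23.1 CPM in Tet-MIST1, and 55.5, 55.8, 54.5 and 58.1 CPM in Tet-PTF1a. With Dox they held 53.8, 29.8, 31.7 and 33.1 CPM in Tet-One, 22.9, 21.4, 20.7 and 18.2 CPM in Tet-MIST1, and 48.8, 47.4, 48.8 and 47.5 CPM in Tet-PTF1a. All Tet-PTF1a Dox libraries lay below the Control libraries of that line, and Tet-One Dox replicate 1 lay above all other Tet-One and Tet-MIST1 libraries. The fall in Tet-PTF1a was 14.1% (log2 fold change -0.22, SE 0.035, FDR = 5.63e-07), a size that 30.6% of genes exceeded. That call was lost when all 24 libraries were fitted together (-0.22, SE 0.1249, FDR = 0.245).

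The EPCAM level in Tet-PTF1a was 0.77 above Tet-One in Control (SE 0.038, FDR = 1.40e-11) and 0.36 above it with Dox (SE 0.176, FDR = 0.101). The difference with Dox was called with all libraries in one fit (0.38, FDR = 0.0101) and with library size scaling (0.525, FDR = 0.0148). The responses of Tet-PTF1a and Tet-One differed by -0.41 (SE 0.186, FDR = 0.184). Without Tet-One Dox replicate 1 the difference with Dox was 0.59 (FDR = 5.58e-18) and the responses differed by -0.17 (SE 0.058, FDR = 0.0232). Tet-MIST1 was lower than Tet-One by 0.54 in Control and by 0.85 with Dox, or by 0.62 with Dox without that library. Tet-PTF1a was 1.31 above Tet-MIST1 in Control and 1.21 with Dox, and the responses of these lines differed by -0.10 (95% interval -0.30 to 0.09, FDR = 0.417). In Control the order was Tet-PTF1a, Tet-One and Tet-MIST1, each beyond the spread of the next.

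DCLK1 depended on the line far more than on Dox. It had 1, 2, 5 and 4 reads in the Tet-One Control libraries and 5, 2, 2 and 5 in the Tet-One Dox libraries. The Tet-PTF1a libraries held 88, 29, 35 and 71 reads in Control (2.03, 1.58, 1.68 and 1.82 CPM) and 41, 33, 34 and 61 reads with Dox (2.28, 1.51, 1.70 and 1.80 CPM). In Tet-MIST1 the Control libraries held 44.9, 42.8, 41.3 and 42.6 CPM and the Dox libraries 64.0, 65.8, 69.0 and 68.0 CPM. The 3 lines did not overlap in either state, and in Tet-MIST1 every Dox library lay above every Control library. DCLK1 rose 1.55-fold there (log2 fold change 0.63, SE 0.047, FDR = 5.37e-06), a change that 1.64% of genes exceeded in size. In Tet-PTF1a the log2 fold change was -0.0095 (95% interval -0.33 to 0.31, FDR = 0.969), and its response differed from that of Tet-MIST1 by -0.63 (SE 0.132, FDR = 7.84e-04).

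Summed over its 4 libraries, Tet-MIST1 held 6901 DCLK1 reads in Control and Tet-One held 12, a ratio of 554 after scaling (95% exact binomial interval 317 to 1072, for counting error only). With Dox the sums were 9861 and 14 and the ratio was 693 (interval 413 to 1268). Tet-PTF1a exceeded Tet-One 23.7-fold in Control (13.3 to 46.5) and 18.8-fold with Dox (10.9 to 35.1). DCLK1 passed the filter on low counts against Tet-One only through the line in which it is high, so that it had to differ in those fits. The response of DCLK1 in Tet-One was 14 against 12 reads, a ratio of 1.24 (0.533 to 2.94), and its rise in Tet-MIST1 was not shown to differ from that (difference of log2 fold changes 0.32, SE 0.446, FDR = 0.936). The 1.55-fold change seen in Tet-MIST1 lies inside that interval, so it was not detectable in Tet-One at this depth.

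The second question was how far the lines lay apart before induction. In Control, 5 of the 5 genes were called between Tet-MIST1 and Tet-One (2 higher, 3 lower), beside 80.2% of all genes. In both states the counts against Tet-One include DCLK1, which had to differ there because of the filter and is no evidence, so that 4 genes remain in each. The count was 3 of 5 between Tet-PTF1a and Tet-One (all higher), beside 79.7% of genes, and 5 of 5 between Tet-PTF1a and Tet-MIST1 (4 higher, 1 lower), beside 86.3%. With Dox, 4 of 5 were called between Tet-MIST1 and Tet-One, beside 52.7% of genes, 3 of 5 between Tet-PTF1a and Tet-One, beside 62.8%, and 5 of 5 between Tet-PTF1a and Tet-MIST1, beside 82.9%. Most genes differed between the clones, and the comparisons share groups of libraries, so the counts of the 5 genes are not set apart from that background. The responses to Dox differed between Tet-PTF1a and Tet-MIST1 for 4 of the 5 genes (all lower in Tet-PTF1a), beside 36.4% of genes, and between Tet-PTF1a and Tet-One for 2 of the 5 (CD24 and CD44), beside 12.9%. The MET response was also called there by DESeq2 (FDR = 0.0338) and with all 24 libraries fitted together (FDR = 0.0258). Between Tet-MIST1 and Tet-One 0 of the 5 responses were called, beside 1.67% of genes, with 1578 of 13859 genes at an unadjusted p under 0.05, and DESeq2 also called 0 of the 5.

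**Figure D2:**
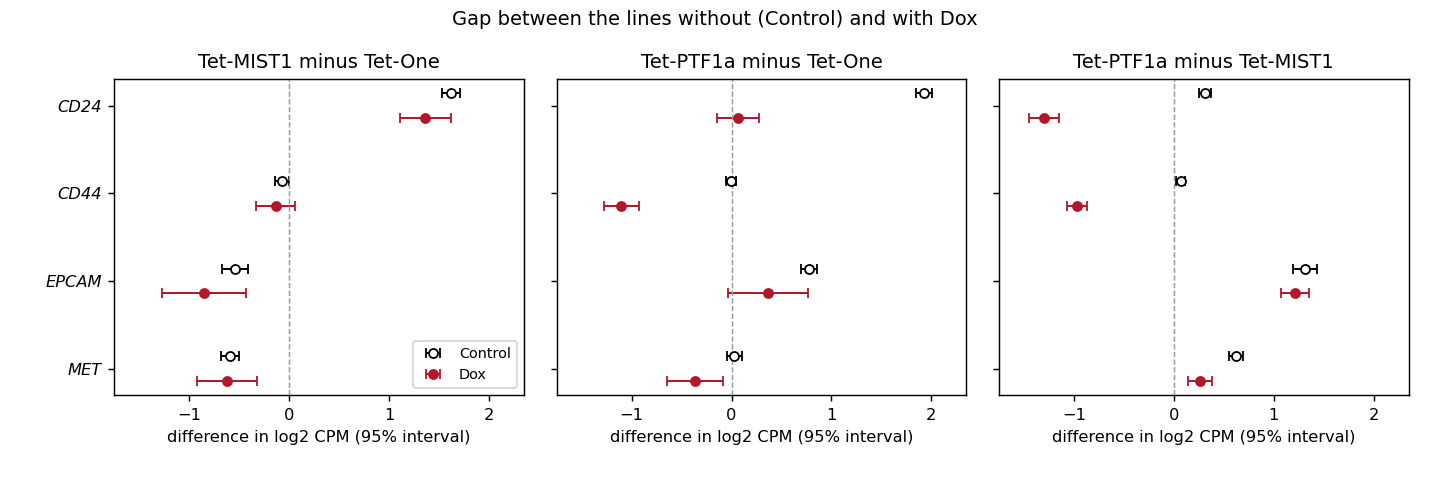
Difference in log2 CPM between lines (x axis, bars for the 95% interval of the edgeR fit) for CD24, CD44, EPCAM and MET, open for Control and filled for Dox. The CD24 difference between Tet-PTF1a and Tet-One goes from 1.93 to 0.06 with Dox, that of CD44 from near 0 to -1.11, and the intervals that involve Tet-One Dox are the wide ones.

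The third question was whether Dox moved the lines towards one level. The range of a gene was taken as the highest minus the lowest of the 3 line means of log2 CPM, and is given as a description with no test. For CD24 the range was 1.94 in Control and 1.38 with Dox, with Tet-PTF1a the highest line in Control and Tet-MIST1 the highest with Dox. The EPCAM range was 1.33 and 1.21, and the MET range 0.64 and 0.59. The CD44 range was 0.084 in Control, narrower than that of 98.7% of 13506 genes, and 1.09 with Dox, with 28.9% of genes wider. The DCLK1 range was 8.38 and 8.81, the widest of all 13506 genes in both states. The range was thus narrower with Dox for 3 of the 5 genes (CD24, EPCAM and MET), beside 37.3% of all genes, whose median range was 0.66 in Control and 0.74 with Dox. The narrowing of MET rested on Tet-One Dox replicate 1: without it the range with Dox was 0.72, wider than in Control, and 2 of the 5 genes were narrower. With Dox, CD24, CD44, EPCAM and MET each still had at least 2 pairs of lines that differed in the test, and DCLK1 differed between Tet-PTF1a and Tet-MIST1.

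**Figure D3:**
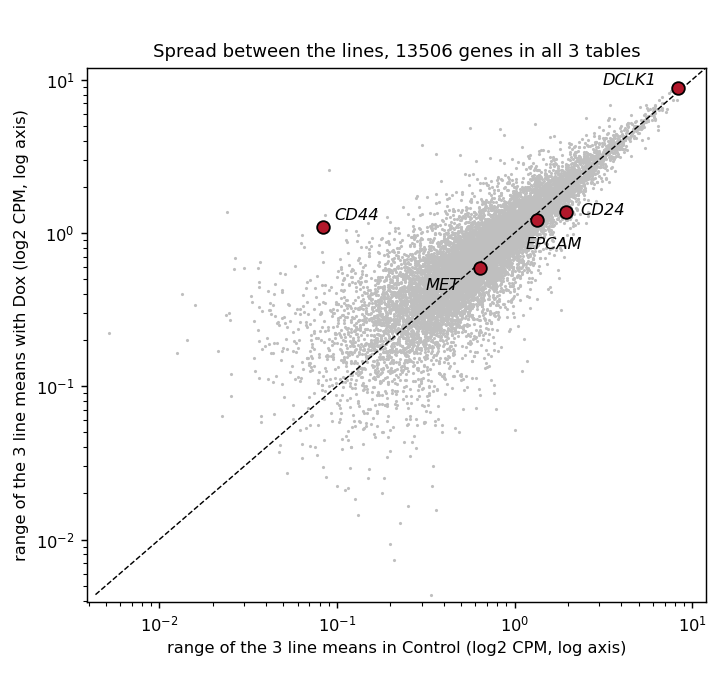
Range of the 3 line means (highest minus lowest, log2 CPM, both axes logarithmic) in Control (x axis) and with Dox (y axis), 1 grey point for each of 13506 genes and the 5 markers in red, with a dashed line where the ranges are equal. CD24, EPCAM and MET lie below the line and CD44 far above it, from 0.084 to 1.09, while DCLK1 is at the upper end on both axes.

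Levels of different genes are comparable only per length. Per kilobase of listed exon, CD44 was the most abundant of the 5 in Tet-One Control (213 ± 5.1 CPM per kb, SD, n = 4), followed by MET (28.2 ± 1.7), EPCAM (18.9 ± 0.54) and CD24 (16.2 ± 0.78). DCLK1 was at 0.0056 ± 0.0033 CPM per kb. In Tet-PTF1a Control, CD24 was second (62.3 ± 1.9 CPM per kb) and in Tet-PTF1a Dox it was below 3 of the other genes (18.3 ± 0.59), CD44, EPCAM (28.01 ± 0.45) and MET (20.1 ± 0.74). The place of CD24 rests on the length of its listed exons on chromosome Y, and its counts can hold reads of near-identical copies. DCLK1 in Tet-MIST1 went from 3.13 ± 0.11 to 4.87 ± 0.16 CPM per kb, which was still below EPCAM in the same line (12.1 ± 1.2 with Dox).

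For each gene, the 3 genes with the nearest pattern were found by the Euclidean distance between the centred mean log2 CPM of the 6 groups, among 12962 genes. They were IFIT2, PPAP2B and MIR614 for CD24 (distances 0.57 to 0.67), and RXFP4, IL6R and PMEPA1 for CD44 (0.23 to 0.29). For EPCAM they were RGN, KDSR and LPGAT1 (0.16 to 0.18), and for MET RTTN, AKAP12 and SH3BP4 (0.12 to 0.14). IFIT2, an interferon-induced gene, followed CD24 with Control levels of 10.9 CPM (Tet-One), 29.6 CPM (Tet-MIST1) and 27.4 CPM (Tet-PTF1a), and 9.69, 31.0 and 9.04 CPM with Dox. For DCLK1 the nearest were KCNK10, CTNNA2 and ALX4, at distances of 2.47 to 2.78. The distances were not scaled to the range of a gene, which was the widest for DCLK1. They therefore cannot be compared between markers.

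The other markers of the same panel are those the study lists. Further stem cell markers and the genes around each receptor were taken from lists written from general knowledge. The remaining CSC markers of the study, the efflux pump ABCG2 and the aldehyde dehydrogenases ALDH1A3 and ALDH2, fell in Tet-PTF1a in 3 of 3 cases, by 1.01, 0.80 and 0.49 on the log2 scale (median -0.80, beside 0.0014 for all genes). The study curated its list from published markers and reported all of them but DCLK1 as reduced by PTF1a in these same samples. The count of these 3 is therefore not independent evidence of a direction. ALDH1A3 went from 67.1 ± 1.7 to 38.4 ± 1.4 CPM there (SD, n = 4), and in Tet-MIST1 it also fell, from 38.2 ± 0.62 to 31.3 ± 1.9 CPM (log2 fold change -0.29, FDR = 0.00315). ABCG2 and ALDH2 in Tet-MIST1 had log2 fold changes of -0.03 and 0.06 (FDR = 0.864 and 0.44).

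Further stem cell markers went the other way in Tet-PTF1a: of 11 tested genes 8 rose and 1 fell (median 0.37), beside 23.8% of all genes called higher and 24.4% called lower. NES, an intermediate filament protein of neural and other progenitors, went from 214 ± 5.2 to 782 ± 21 CPM (log2 fold change 1.87, FDR = 8.74e-49). CXCR4, a chemokine receptor, rose by 1.02 from 0.758 CPM, and SOX2, a transcription factor of pluripotent and neural cells, rose by 0.79 from 3.07 CPM. The 1 gene that fell was CD9, a tetraspanin (-0.55, FDR = 3.64e-22). In Tet-MIST1, 1 of 9 rose and 2 fell, beside 11.9% of all genes called higher there and 8.77% called lower. CD9 rose by 0.24, while the RNA-binding protein MSI2 (-0.36) and the duct factor SOX9 (-0.18) fell. PROM1, ALDH1A1, NANOG, POU5F1 and TSPAN8 were not listed in any table.

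Around CD44, 3 of 19 genes rose and 9 fell in Tet-PTF1a (median -0.23), beside the same 23.8% and 24.4% of all genes, among them HAS3, a hyaluronan synthase (-1.04, FDR = 1.33e-14), and ESRP2, a splicing factor that acts on CD44 transcripts (-0.94, FDR = 2.32e-22). CEMIP, which takes part in hyaluronan breakdown, and SRGN, a proteoglycan, fell by 0.80 and 0.65 from levels of 1.37 and 2.64 CPM. In Tet-MIST1, 0 of 18 rose and 4 fell, beside 11.9% of all genes called higher there and 8.77% called lower. HAS3 (-0.44), NF2 (-0.27) and MSN (-0.23) were among those that fell. NF2 and MSN encode proteins of the family that links membrane proteins to actin.

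Around MET, 5 of 19 genes rose and 7 fell in Tet-PTF1a (median 0.02), beside 23.8% of all genes called higher and 24.4% lower. SPINT1, an inhibitor of the proteases that activate HGF, went from 5.96 ± 0.49 to 22.2 ± 0.37 CPM (log2 fold change 1.89, FDR = 1.76e-29), and LRIG1, a negative regulator of receptor tyrosine kinases, rose by 1.06. PTPRJ, a phosphatase for which MET is a substrate, fell by 1.07, and MST1R, the receptor most like MET, fell by 0.58. In Tet-MIST1, 1 of 18 rose and 3 fell, beside 11.9% of all genes called higher there and 8.77% called lower. SPINT2, the other HGF activator inhibitor, was at 0.25 and the ubiquitin ligase CBL at -0.44.

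Around EPCAM, 6 of 12 genes rose and 2 fell in Tet-PTF1a (median 0.08), beside 23.8% of all genes called higher and 24.4% lower. CDH1, the epithelial cadherin, rose by 0.83 from 14.01 ± 0.35 CPM, while CLDN7, a claudin that binds EPCAM, fell by 0.93 from 20.3 ± 0.83 CPM. Of the γ-secretase subunits, which cut the remaining stub of EPCAM, PSEN2 rose by 0.31 and PSENEN fell by 0.18. In Tet-MIST1, 2 of 12 rose and 3 fell, beside 11.9% of all genes called higher there and 8.77% called lower. PSENEN was among those that rose (0.39, FDR = 0.00345).

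Of 9 genes for CD24 receptors and lipid anchor attachment, 2 rose and 3 fell in Tet-PTF1a (median 0.06, beside 23.8% of all genes higher and 24.4% lower), the largest being PGAP1 at 0.36, and 0 of 9 were called in Tet-MIST1. Of the doublecortin family and tuft cell genes, 16 of 21 were not listed in any table, POU2F3, TRPM5 and GFI1B of the tuft cell among them. Of the 5 tested in Tet-PTF1a 0 rose and 4 fell (median -0.39), beside 23.8% of all genes called higher and 24.4% lower. They were PTGS1, a prostaglandin synthase, which fell by 2.34 from 1.91 ± 0.19 CPM, DCLK2, which fell by 0.42, PLCG2, which fell by 0.18, and IL17RB, which fell by 0.17. In Tet-MIST1, where DCLK1 itself rose, 1 of 3 tested was called, IL17RB (0.20, FDR = 0.0147). Of all genes tested in Tet-MIST1, 11.9% were called higher and 8.77% lower. The medians of the 7 lists in Tet-MIST1 ran from -0.18 to 0.01, beside -0.0036 for all genes there. In Tet-One 0 genes of the 7 lists were called.

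**Figure D4:**
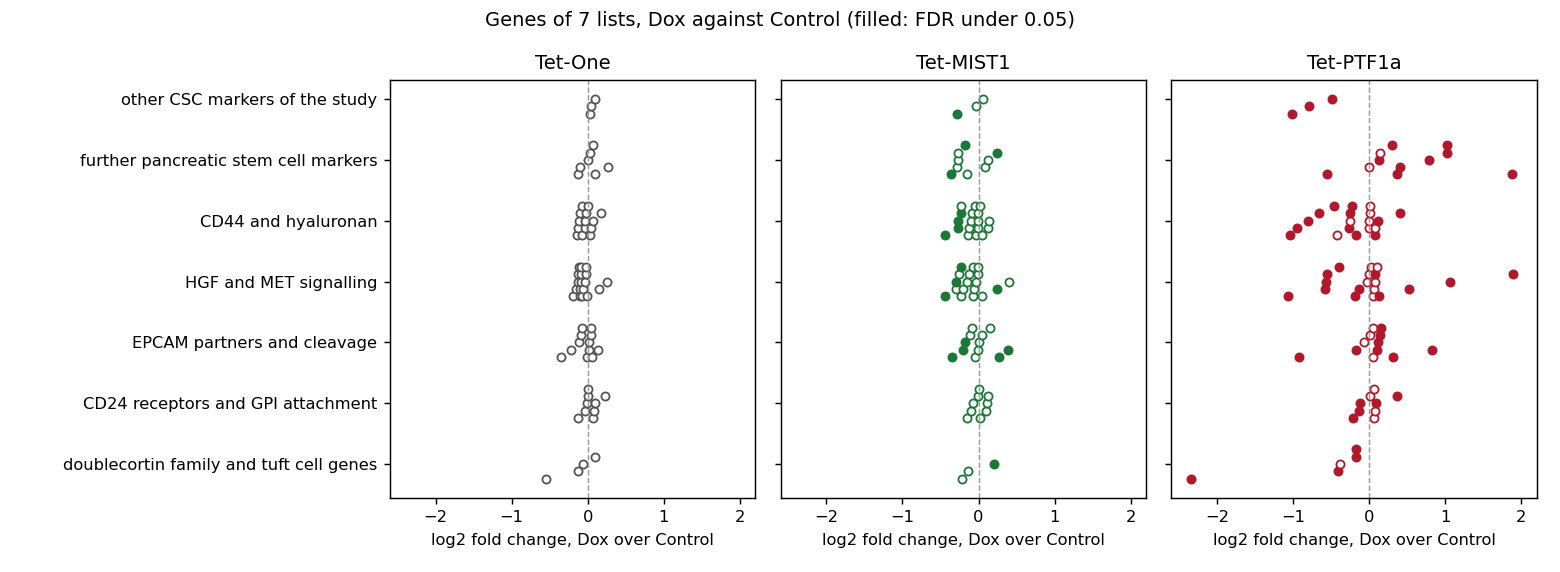
Log2 fold change of Dox over Control (x axis) for each tested gene of 7 lists (rows) in each line, 1 point per gene, filled where edgeR's FDR was under 0.05. Filled points are absent in Tet-One, lie between -0.44 and 0.39 in Tet-MIST1 and spread from -2.34 to 1.89 in Tet-PTF1a.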

How the data were processed

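RNA-Seq libraries of 3 Panc-1 lines, 4 untreated and 4 with Dox each, were deposited as 1 table per line. The deposited tables give raw read counts per gene, and beside them CPM values that the authors scaled per table (treated as a signal), used here only as an alternative. Gene names, positions and other columns are as deposited, and the authors' own fold changes, p-values and FDRs were not used. The submitters' processing notes name hg19, TopHat, HTSeq, DESeq and edgeR, and the strand setting and annotation are not given in the sources used here. Dates stood in place of 20 names in every deposited file. Each table omits genes that another lists, and comparisons between 2 lines used the genes in both of their tables, except that the ranges and the joint fit used genes in all 3.

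Counts were tested with edgeR 4.0.16 (quasi-likelihood, TMM, R 4.3.3) over all genes above 0.5 CPM in at least 4 libraries, with Benjamini-Hochberg adjustment, on the libraries of the groups compared only. Responses were compared by an interaction term. Levels used a prior count of 2 on the log2 scale. Depth ran from 17211000 to 43018500 counts per library, and the intervals on DCLK1 ratios cover counting error only. DESeq2 1.42.0, other scalings, filters and a limit on fold change, all libraries in one fit, a replicate block and each library left out were tried as alternatives. The tests were checked on simulated data for some of the comparisons. The simulation used a single fixed spread for all genes and no distant library. It therefore does not cover the effect of Tet-One Dox replicate 1. Replicate libraries were compared by chi-square over genes (1.39 to 238 per degree of freedom over 36 pairs), and none was merged. In Tet-One Control the value was 4.69 for replicates 1 and 3 and 2.63 for 2 and 4, beside 9.27 to 12.8 for the other pairs. In Tet-MIST1 Control the same pairs had 2.15 and 2.63, beside 4.34 to 6.28. The other groups did not split this way. The main tests took the 4 libraries of a group as independent, and whether such pairs share a source was not tested. The members, lists and tests were chosen with earlier results of these data known. From each list the text names, within a line, at most 4 genes called with a mean of at least 1 CPM and no overlap between groups, by size of change, and the other 3 CSC markers in any case. The text also names the 3 genes nearest to each marker. Promoter windows came from RefSeq for 4 of the 5 genes, and annotation on hg19 from GENCODE lifted to GRCh37.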

Additional observations from a re-analysis of the deposited data

Results flagged for a closer look

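Of 30 groups of 4 libraries checked for a single distant library, 3 held one, where chance gives about 1 in 20. CD44 in Tet-PTF1a Dox replicate 2 was at 645 CPM, beside 652 to 654 CPM in the other libraries of that group. EPCAM in Tet-One Dox replicate 1 was at 53.8 CPM, beside 29.8 to 33.1 CPM. MET in the same library was at 128 CPM, beside 181 to 188 CPM. The cause was not tested.

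The response to Dox differed between lines, by the interaction term of edgeR's test, for 6 pairs of gene and lines. Between Tet-PTF1a and Tet-One the differences were -1.87 for CD24 and -1.10 for CD44 on the log2 scale. Between Tet-PTF1a and Tet-MIST1 they were -1.61 for CD24, -1.04 for CD44, -0.36 for MET and -0.63 for DCLK1. The first 3 of these 4 come from a fall in Tet-PTF1a, and that of DCLK1 from a rise in Tet-MIST1.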

How the results depend on the processing

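Of 525 combinations of a marker, a comparison and an alternative, 490 kept their direction and side of the threshold, 27 lost a call, 7 gained one and 1 reversed (CD44 between Tet-PTF1a and Tet-One in Control, 0.083 with library size scaling). With a limit of 1 on the log2 fold change, the markers called numbered 0 for Dox in Tet-MIST1, 2 for Dox in Tet-PTF1a, 2 for the response of Tet-PTF1a against Tet-MIST1, 2 for Tet-MIST1 against Tet-One in Control and in Dox, 2 for Tet-PTF1a against Tet-MIST1 in Control and 3 in Dox. At least 10 counts in every library gave 3 for Tet-MIST1 against Tet-One in Control, and library size gave 5 for Tet-PTF1a against Tet-One in Control. With each library left out, the counts ran from 1 to 2 for Dox in Tet-MIST1 (2 without Tet-MIST1 Dox replicate 2, where CD24 was at -0.20, FDR = 0.0267), 0 to 0 in Tet-One, 4 to 4 in Tet-PTF1a, 0 to 0, 2 to 4 and 4 to 4 for the responses of Tet-MIST1 against Tet-One, Tet-PTF1a against Tet-One and Tet-PTF1a against Tet-MIST1, 4 to 5, 3 to 3 and 5 to 5 for the same pairs in Control, and 4 to 5, 2 to 5 and 5 to 5 in Dox. Without Tet-One Dox replicate 1, the counts for Tet-PTF1a against Tet-One were 4 for the response and 5 in Dox, and 2 to 3 markers had a narrower range over all libraries left out. The CD44 range in Control was 0.14 with the authors' CPM, and the DCLK1 range 9.27 and 9.52 with a smaller prior count. Over all genes, the calls for Dox in Tet-MIST1 went from 2812 to 1703 with all 24 libraries in one fit, 61 with the fold limit and 1436 to 3764 with a library left out. For Dox in Tet-PTF1a they were 3128 and 533 under the first 2 of these. For the response of Tet-MIST1 against Tet-One they went from 232 to 533 in the joint fit, 499 by DESeq2, 48 with the fold limit and 144 to 1960 with a library left out. For Tet-PTF1a against Tet-MIST1 they were 2716 and 496, and for Tet-PTF1a against Tet-One 420 with the fold limit and 4146 without Tet-One Dox replicate 1, which also gave 1 call in Tet-One. Between lines the fold limit left 2422, 1322 and 2502 genes in Control and 2371, 2135 and 3151 in Dox (Tet-MIST1 over Tet-One, Tet-PTF1a over Tet-One, Tet-PTF1a over Tet-MIST1). Library size scaling moved the share of calls that were higher from 49.4% to 61.9% for Dox in Tet-PTF1a, from 49.3% to 59.5% and from 49.2% to 60.7% for Tet-MIST1 and Tet-PTF1a against Tet-One in Dox, and from 42.9% to 54.1% for the response of Tet-PTF1a against Tet-One, with a median shift of up to 0.15. The replicate numbers did not pair the libraries: of 12 correlations of deviations between same-numbered libraries, from -0.44 to 0.39, 1 was over 0.1, and 2 of 12 were best with their own number. With the replicate block, 2 markers instead of 3 were called for Tet-PTF1a against Tet-One in Dox (MET at -0.35, FDR = 0.0504), the other counts of markers were as before, and the calls over all genes were 1463 for Dox in Tet-MIST1 and 83 for the response of Tet-MIST1 against Tet-One. The cause of these changes was not tested. At 1 to 5 reads per library, depth limits DCLK1 in Tet-One.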
